A study of Mus musculus with 24 samples.

Results

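The BCL2 family is a set of proteins that decide whether a cell opens the outer membrane of its mitochondria and dies. The genes examined here were 10 named members of the family, all of which were found by symbol among the 55417 genes of the deposited count table, and all 10 passed the filter on low counts, which kept 16767 genes. RNA came from entorhinal cortex dissected out of mice aged 2 to 4 months, and 24 libraries were sequenced. Every library was labelled tg/tg for the cross of Nop-tTA Line S with TRE-GlyCl-YFP Line 9531, so the vehicle group carried the same transgenes as the treated groups and no group lacked them. The 4 groups of 6 were vehicle (4 females, 2 males) and the tissue 1, 2 and 3 days after activation of GlyCl (3 females and 3 males each). GlyCl is a modified glycine receptor that passes chloride and, once opened, keeps neurons from firing. Nop-tTA places it under the neuropsin promoter, which is active in a subset of entorhinal neurons, while the libraries hold RNA of the whole dissected tissue. In such bulk samples, fewer cells of a type and less RNA per cell cannot be told apart. The sources used here do not give the agent that opened the channel or when vehicle tissue was taken.

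Members of the family act on each other by binding. Bax and Bak1 form the pores in the outer mitochondrial membrane that release cytochrome c. Bcl2, Bcl2l1 (the gene of BCL-XL) and Mcl1 hold them in check and keep cells alive. Bid, Bad, Bcl2l11 (BIM), Bbc3 (PUMA) and Hrk (also called DP5) share only the short BH3 stretch of the family, by which they bind the survival proteins, and some also activate Bax and Bak1. In neurons deprived of trophic support, RNA of Hrk, Bcl2l11 and Bbc3 is known to increase before death, while Bax, Bad and Bid are controlled largely at the protein level. Protein is not seen in the measurements below. The question put to the 10 genes was whether entorhinal tissue with silenced neurons shows a change in this programme.

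Total counts ranged from 16621659 to 23667449 reads per library. The female transcript Xist and the male transcript Ddx3y matched the sex label in 24 of 24 libraries. Markers of neurons were abundant in all 4 groups, with a summed level of 5 genes of 5820 to 6506 CPM (read counts scaled to a common library size) in vehicle and 5739 to 6099 CPM at day 3. A set of 5 markers of superficial entorhinal neurons summed to 508 to 589 CPM in vehicle and 479 to 541 CPM at day 3. None of these 5 was called at day 3. Their log2 fold changes lay between -0.16 (Wfs1) and 0.14 (Lef1). Ttr, the main transcript of the choroid plexus, stood at 562 to 1171 CPM in 8 libraries (1 vehicle, 2 day 1, 2 day 2 and 3 day 3), whereas its highest level elsewhere was 25.9 CPM. The transgene marker EYFP was read in all libraries and fell by 0.89 on the log2 scale at day 3 (edgeR adjusted p = 1.19e-05).

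Levels of the members differed widely within the tissue. Expressed per kilobase of exon (CPM per kb, mean ± SD, n = 6 vehicle libraries), Bcl2l1 was the most abundant at 25.3 ± 1.75, followed by Mcl1 at 20.5 ± 1.197 and Hrk at 17.1 ± 1.94. Bax stood at 10.4 ± 1.14, Bad at 7.10 ± 0.528 and Bbc3 at 4.71 ± 0.330 CPM per kb. Bak1 (2.93 ± 0.260), Bcl2 (2.88 ± 0.256) and Bid (2.50 ± 0.405) came next, and Bcl2l11 was lowest at 1.08 ± 0.125. Bcl2l1 lay above Mcl1 in every pairing of vehicle libraries (lowest 23.7 against highest 22.2 CPM per kb), whereas the range of Mcl1, from 19.4, overlapped that of Hrk, which reached 19.4 at its highest. The ranges of Bak1, Bcl2 and Bid overlapped one another. The 2 survival genes Bcl2l1 and Mcl1 thus headed the list per length in this tissue, and Bcl2 itself was among the 4 lowest. These lengths come from an annotation of another mouse build than the files use, so the order is approximate for close neighbours.

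Against vehicle, 0 of 10 members passed the test at day 1, 0 of 10 at day 2 and 0 of 10 at day 3 (edgeR, adjusted p under 0.05 over all genes tested). Over all genes, 0.0656% were called at day 1, 0.0656% at day 2 and 0.614% at day 3, shares at which 10 genes would rarely include a call. With DESeq2 and with limma voom, 0 members were called on each of the 3 days too. At an unadjusted p under 0.05, 1 member was met on each day by each of the 3 tools, namely Bcl2l1 (lower) at day 1 and Bbc3 (higher) at days 2 and 3. The background share of that looser rule was 7.25% of all genes at day 1, 5.2% at day 2 and 5.64% at day 3. The members' median log2 fold change was -0.024 at day 1, -0.015 at day 2 and 0.0014 at day 3, beside 0.0011, 0.00059 and -0.0016 over all genes tested. The 3 comparisons share the vehicle libraries and are therefore not independent.

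The data also bound how large a change could have gone unseen. On each of the 3 days the 95% confidence interval of all 10 members, not adjusted for the number of genes, lay within a 1.5-fold change in either direction. The highest upper bound was 1.31-fold at day 1, 1.37-fold at day 2 and 1.41-fold at day 3, and the lowest lower bound was 0.815, 0.829 and 0.847-fold. These bounds concern the tissue average. A larger change in the channel-bearing neurons alone would be diluted by RNA of all other cells, to an extent that was not measured.

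**Figure D1:**
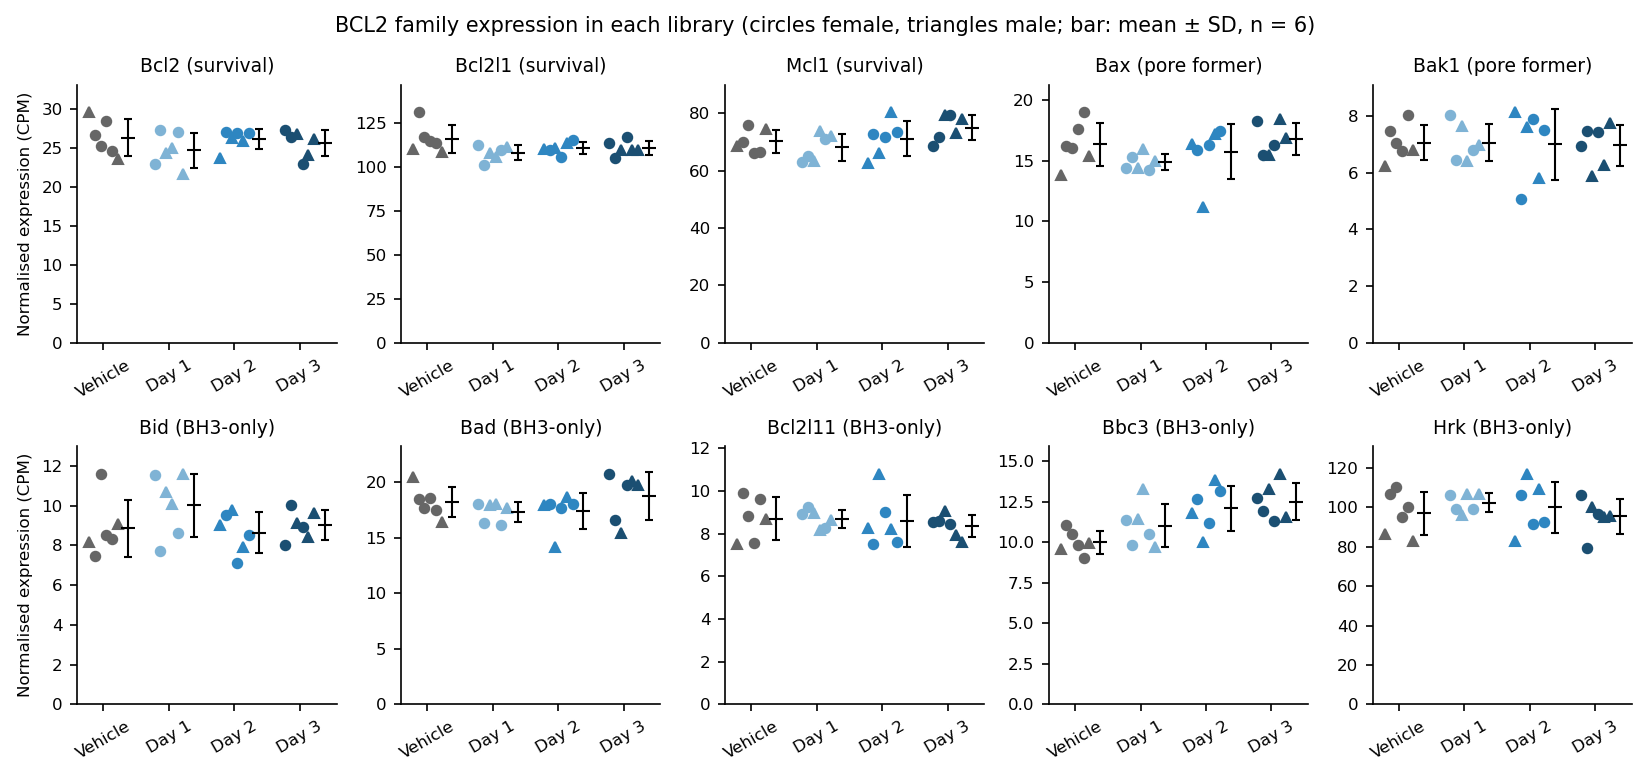
Normalised expression (CPM, linear axis from 0) of the 10 members in each of the 24 libraries, by group; circles are female and triangles male libraries, and the bar beside each group is the mean ± SD (n = 6). The groups overlap for each member except Bbc3 at day 3, whose 6 libraries (11.3 to 14.2 CPM) lie above the highest vehicle library (11.1 CPM).

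Of the survival genes, Bcl2l1 was read in vehicle at 109 CPM in the lowest, 114 in the median and 131 in the highest library. At day 1 the lowest, median and highest libraries stood at 101, 109 and 113 CPM. None of the day 1 libraries lay above the vehicle median and 3 lay below every vehicle library, but the groups overlapped. The log2 fold change was -0.095 ± 0.041 (SE), with an adjusted p of 0.572 (edgeR; unadjusted p = 0.0260). For Bcl2l1 the value was -0.060 without library 2 of the vehicle group, -0.14 in females alone and -0.011 in males alone. The day by sex test, which took all 3 days jointly and not day 1 alone, gave an unadjusted p of 0.333 (edgeR). At days 2 and 3 Bcl2l1 spanned 105 to 115 and 105 to 117 CPM, and its log2 fold changes were -0.061 ± 0.041 on both days (adjusted p = 0.982 and 0.999).

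Mcl1, a short-lived survival protein that must be made continuously, ran from 66.2 over a median of 69.1 to 75.9 CPM in vehicle. It ran from 63.0 over 68.2 to 73.8 CPM at day 1, from 62.6 over 72.1 to 80.3 CPM at day 2 and from 68.7 over 75.5 to 79.2 CPM at day 3. At day 3 the median stood highest of the 4 groups, and 3 of the 6 libraries lay above every vehicle library. The log2 fold change at day 3 was 0.091 ± 0.055 (SE; edgeR adjusted p = 0.999), and those at days 1 and 2 were -0.047 ± 0.056 and 0.016 ± 0.056.

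Bcl2, which gave the family its name, spanned 23.5 to 29.6 CPM in vehicle, with a median of 25.9. The spans were 21.7 to 27.3 CPM at day 1, 23.7 to 27.1 CPM at day 2 and 23.02 to 27.3 CPM at day 3. All 3 overlapped vehicle, although 2 day 1 libraries lay below every vehicle library. Its log2 fold changes were -0.084, -0.0036 and -0.032 with an SE of 0.064 on each day (edgeR adjusted p = 0.848, 0.997 and 0.999).

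Of the pore formers, Bax was at 13.8 to 18.98 CPM in vehicle (median 16.1), 14.2 to 15.9 CPM at day 1 (median 14.7), 11.2 to 17.4 CPM at day 2 (median 16.3) and 15.4 to 18.4 CPM at day 3 (median 16.6). None of the 6 day 1 libraries exceeded the vehicle median. The log2 fold change of Bax was -0.12 ± 0.085 at day 1 and 0.053 ± 0.084 at day 3 (SE; edgeR adjusted p = 0.836 and 0.999). In females alone the day 1 value was -0.23 and in males alone 0.053. The day by sex test for Bax, over all 3 days jointly, gave an unadjusted p of 0.304 (edgeR). Bak1, with 98 to 187 reads per library, was at 7.06 ± 0.627 CPM (SD, n = 6) in vehicle and at 7.05 ± 0.655, 6.999 ± 1.26 and 6.96 ± 0.733 CPM on the following days. Its log2 fold changes, 0.0061, -0.0073 and -0.012, were far smaller than their SEs of 0.107, 0.108 and 0.107.

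The reads of Bax relative to those of Bcl2, a ratio often used as an index of readiness to die, are given as a description. The ratio was 0.625 ± 0.0975 (SD, n = 6) in vehicle, 0.606 ± 0.0592 at day 1, 0.603 ± 0.0943 at day 2 and 0.658 ± 0.0725 at day 3. The ranges overlapped in all groups, with 0.466 to 0.770 in vehicle and 0.575 to 0.764 at day 3. Since the genes differ in length, only its course over the groups can be read, not its size.

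Among the BH3-only genes, Hrk was the most abundant and is known mainly from neurons. It spanned 82.8 to 110.4 CPM in vehicle (median 97.4), 96.2 to 106.7 CPM at day 1 (median 102.7), 83.0 to 116.9 CPM at day 2 (median 99.3) and 79.4 to 106.1 CPM at day 3 (median 96.1). The lowest and the highest of all 24 values thus fell at day 3 and day 2. Its log2 fold changes were 0.083 ± 0.076, 0.048 ± 0.076 and -0.018 ± 0.076 (SE; edgeR adjusted p = 0.888, 0.991 and 0.999). For Hrk these pooled values cover estimates of opposite sign in the 2 sexes. The same 2 male vehicle libraries stand behind the male estimates of all 3 days. The estimates were -0.023, -0.093 and -0.13 in females alone and 0.29, 0.29 and 0.20 in males alone, none of them called. The day by sex test, over all 3 days jointly, gave an unadjusted p of 0.0617 (edgeR adjusted p = 1.00). At day 3 the pooled 95% interval of Hrk ran from 0.887 to 1.10-fold.

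Bcl2l11, the gene of BIM, was read 135 to 224 times per library. It was at 8.70 ± 1.01 CPM (SD, n = 6) in vehicle, 8.70 ± 0.419 at day 1, 8.59 ± 1.22 at day 2 and 8.38 ± 0.525 at day 3. Only 1 of the 6 day 3 libraries lay above the vehicle median, and the day 3 log2 fold change was -0.056 ± 0.090 (SE; edgeR adjusted p = 0.999).

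Bid, which is cut by caspase-8 and carries the death receptor signal to mitochondria, spanned 7.48 to 11.6 CPM in vehicle (median 8.42) and 7.69 to 11.6 CPM at day 1 (median 10.4). The day 1 median was higher, with 5 of 6 libraries above the vehicle median, but the spans were nearly the same. The log2 fold change was 0.16 ± 0.11 at day 1, -0.046 ± 0.11 at day 2 and 0.014 ± 0.11 at day 3 (SE; edgeR adjusted p = 0.812, 0.993 and 0.999). Bad, which survival kinases hold inactive by phosphorylation, spanned 16.4 to 20.4 CPM in vehicle and 15.4 to 20.8 CPM at day 3. Its log2 fold changes were -0.067, -0.062 and 0.047, with SEs of 0.076, 0.076 and 0.075.

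Exons of 5 of the 10 members overlap those of another gene, on the opposite strand for 4 of them, and whether reads were counted by strand is not stated. In the annotation at hand, exons of Bad overlap those of Gpr137 on the opposite strand over 20.5% of their length, and those of Bid overlap Bcl2l13, itself a distant BCL2 relative, over 17.7%. Bak1 overlaps Ggnbp1, Bax overlaps Gm45808 on its own strand over 12.2%, and Bcl2 overlaps an antisense RNA over 6.09%. Values of these 5 genes may include reads of their partners. Bcl2l1, Bcl2l11, Mcl1, Bbc3 and Hrk overlap no other exon in that annotation.

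**Figure D2:**
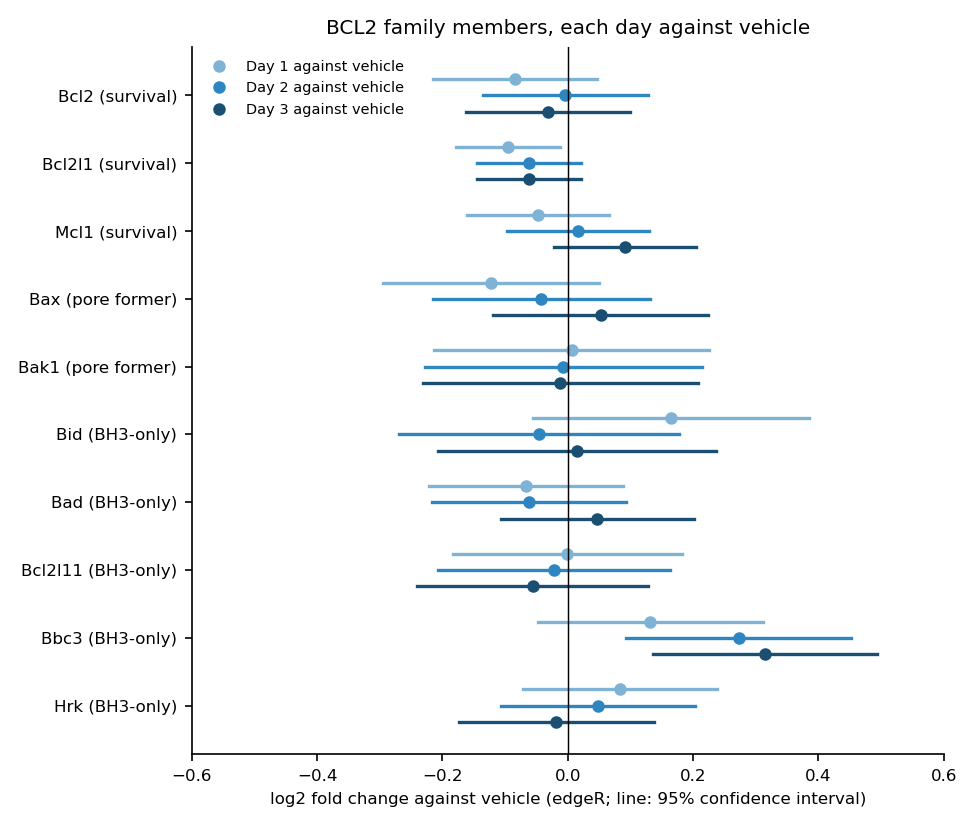
Log2 fold change of each member against vehicle at days 1, 2 and 3 (points), with the 95% confidence interval from edgeR (lines; 6 libraries per group). The intervals of Bbc3 at days 2 and 3 (0.093 to 0.45 and 0.14 to 0.49) and of Bcl2l1 at day 1 (-0.18 to -0.012) lie to one side of 0, and none of the 10 members passed the adjusted test.

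Bbc3 (ENSMUSG00000002083, PUMA) was the member with the largest difference from vehicle at days 2 and 3. PUMA binds all of the survival proteins and is a known transcriptional target of p53 and of other stress-activated factors. Libraries 1 to 6 of the vehicle group stood at 9.57, 11.1, 10.5, 9.86, 9.06 and 9.96 CPM. The day 1 libraries stood at 11.4, 9.85, 11.4, 13.3, 10.5 and 9.69 CPM. At day 1, 3 of 6 were above every vehicle library and the rest lay within the vehicle range.

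At day 2 the values were 11.8, 12.6, 10.02, 11.2, 13.8 and 13.2 CPM, and 5 of 6 were above every vehicle library. At day 3 they were 12.7, 11.9, 13.3, 11.3, 14.2 and 11.6 CPM, and all 6 lay above every vehicle library. Groups parted in that way, with each day 3 library above each vehicle library, for 0.579% of all genes tested at day 3. The share was 0.245% at day 2 and 0.185% at day 1, where 0 of 10 members parted. Each value of Bbc3 rests on 172 to 290 reads.

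Bbc3 averaged 10.001 ± 0.701 CPM (SD, n = 6) in vehicle, 11.02 ± 1.323 at day 1, 12.1 ± 1.39 at day 2 and 12.5 ± 1.13 at day 3. The log2 fold changes were 0.13 ± 0.088, 0.27 ± 0.088 and 0.32 ± 0.087 (SE), or 1.10, 1.21 and 1.24-fold. Over all genes none of these passed (edgeR adjusted p = 0.820, 0.727 and 0.132; unadjusted p = 0.145, 0.00425 and 0.00117). By unadjusted p, Bbc3 was in place 98 of 16767 genes at day 2 and in place 148 at day 3. Bbc3 was chosen for this closer account because its values stood out among the 10.

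The Bbc3 difference at day 3 kept to 0.31 to 0.32 under other scalings, filters and tools, and differed more between the sexes. It was 0.31 with DESeq2 (adjusted p = 0.0705), 0.32 with limma voom (adjusted p = 0.144) and 0.32 when the 8 Ttr-rich libraries were left out (adjusted p = 0.672). In females alone it was 0.25 ± 0.10 and in males alone 0.42 ± 0.16 (SE; edgeR adjusted p = 1.00 and 0.670). The day by sex test for Bbc3, over all 3 days jointly and not day 3 alone, gave an unadjusted p of 0.635 (edgeR). The animal numbers in the labels begin with 7 different pairs of digits, held by 2 to 6 libraries each. With those digits in the model the day 3 difference was 0.39 ± 0.086 and passed (edgeR adjusted p = 0.0293), the single setting in which any member was called. Every day 3 library lay above every vehicle library, so Bbc3 had to be higher at day 3 in any digit group holding both. In the 4 such digit groups the difference was 0.20 to 0.38 on the log2 scale, and its common direction is not a separate result. They held 1 or 2 libraries a side, too few for a test within a digit group.

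**Figure D3:**
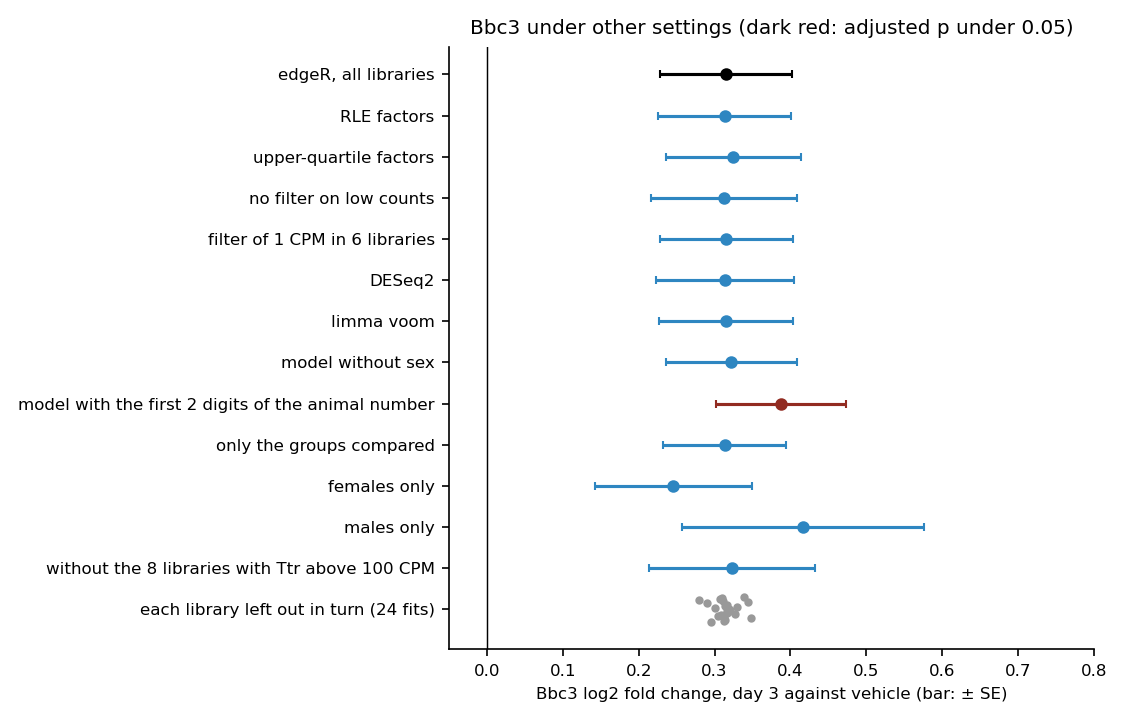
Log2 fold change of Bbc3 at day 3 against vehicle (points, bars ± SE) with all libraries and under 12 other settings, and the 24 values obtained when each library was left out in turn (grey). Values lie between 0.25 and 0.42, and the model with the first 2 digits of the animal number is the one with an adjusted p under 0.05.

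The summed markers of microglia and astrocytes had higher medians at day 3 than in vehicle. Summed over 6 microglial markers, levels were 235 to 271 CPM in vehicle and 265 to 327 CPM at day 3, and Cx3cr1, a chemokine receptor gene of microglia, rose by 0.26 on the log2 scale (edgeR adjusted p = 0.0412). Summed over 5 astrocyte markers they were 1138 to 1401 and 1335 to 1634 CPM, with Gfap, the astrocyte filament gene, higher by 1.119 on the log2 scale at day 3 (edgeR adjusted p = 1.77e-10). The other 4 astrocyte markers were not called and lay between -0.097 (Gja1) and 0.12 (Aqp4), so Gfap carried the higher sum. Median sums in vehicle and at days 1, 2 and 3 were 256, 255, 258 and 294 CPM for microglia. For astrocytes they were 1224, 1193, 1243 and 1401 CPM, with Gfap higher by 0.51 at day 2 (edgeR adjusted p = 0.00116). Median sums of oligodendrocytes, their precursors and endothelium were 2500, 199 and 158 CPM in vehicle. At day 3 they were 2322, 196 and 155 CPM. Markers of neutrophils and T cells were near 0 in all groups, with sums of 4 genes each of at most 0.546 and 0.721 CPM. The part of these cell types in the Bbc3 values was not tested.

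A comparison of day 3 with day 1 asked whether members changed during silencing. It sets no vehicle level beside them, although the vehicle libraries entered the same fit and its estimate of spread. None of the 10 passed (edgeR; 0 also with DESeq2 and limma voom), where 0.65% of all genes were called. At an unadjusted p under 0.05, 3 of 10 were met, beside 8.39% of all genes, and all 3 were higher at day 3. They were Bax (0.18 ± 0.083, adjusted p = 0.576), Mcl1 (0.14 ± 0.055, adjusted p = 0.417) and Bbc3 (0.18 ± 0.086, adjusted p = 0.563), a pore former, a survival gene and a BH3-only gene. The joint test of all 3 days against vehicle also called 0 of 10 with edgeR, DESeq2 and limma voom, beside 0.644% of all genes with edgeR. Its smallest unadjusted p among the members was 0.00482 for Bbc3 (adjusted p = 0.267), and Mcl1 and Bcl2l1 came next (0.112 and 0.150).

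**Figure D4:**
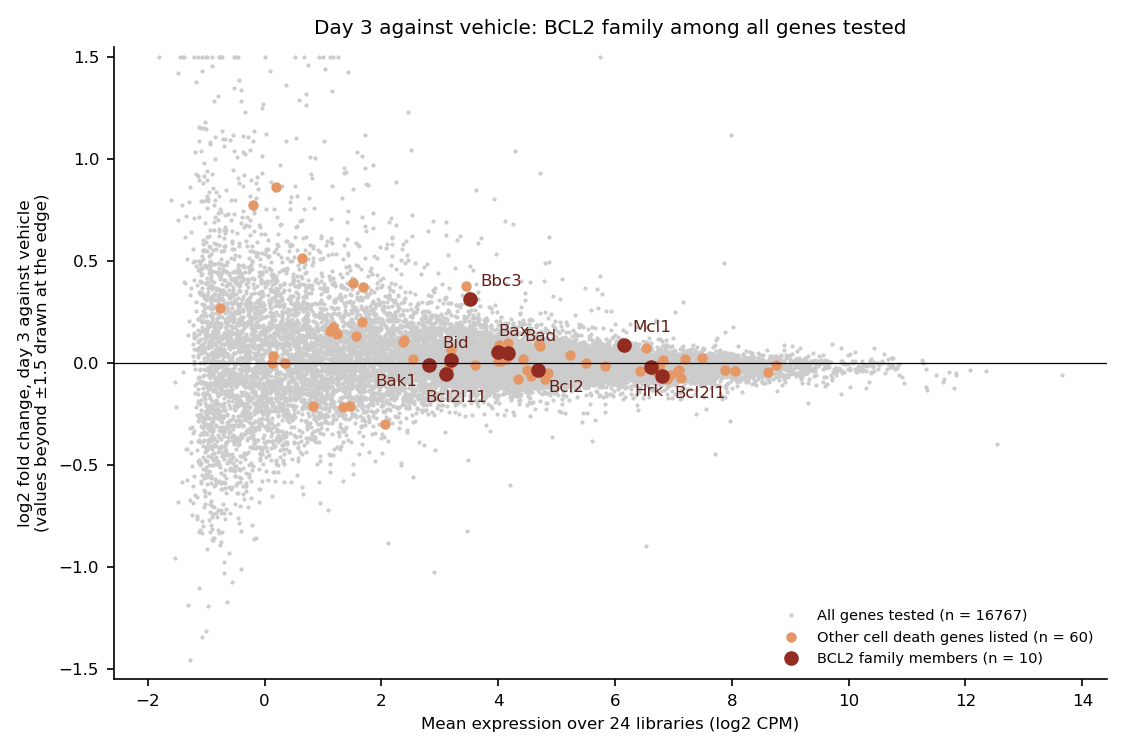
Log2 fold change at day 3 against vehicle by mean expression (log2 CPM) for all 16767 genes tested (grey). The 10 members are dark red, and 60 other genes of cell death or upstream of BH3-only genes are orange. Values beyond the axis are drawn at its edge. Of the members, 9 lie between -0.061 and 0.091, and Bbc3 stands apart at 0.32.

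For these 3 genes, those with the most similar course over the 24 libraries were found by Spearman's rank correlation of log2 CPM over 16723 genes with a symbol, as a description. The genes most like Bbc3 were Gm16701 (rho = 0.737), 2410006H16Rik (rho = 0.723) and Tlr2 (rho = 0.723). Tlr2, a Toll-like receptor of innate immune cells, rose by 1.89 ± 0.29 at day 3 (SE; edgeR adjusted p = 0.000333). This Gm16701 entry was low, with a mean log2 CPM of -0.86 and a day 3 log2 fold change of 1.28. Another entry under that symbol, with a mean log2 CPM of 2.4, had a day 3 log2 fold change of 0.091. The genes most like Mcl1 were Sik1, a kinase gene (rho = 0.770), Klf10, a transcription factor (rho = 0.764), and Stk40 (rho = 0.763). Those most like Bcl2l1 were Rapgef3 (rho = 0.727), Mettl26 (rho = 0.716) and H2afx (rho = 0.710). All libraries share the dissection, depth differs between them, and the leading values were picked from all of them. Differences between the groups were not removed, so a shared change at day 3 enters these correlations.

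Members did not move as a block from library to library. Over the 24 libraries the highest rank correlation between any 2 members was 0.476, for Bax and Bad, and the lowest was -0.634, for Bad and Bcl2l11, given as descriptions. With group differences included, Bbc3 was most like Mcl1 among the members (rho = 0.416) and had a value of -0.048 with Bcl2. After group and sex were removed, the value with Mcl1 was 0.270, below those with Bad (0.329) and Bax (0.319).

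Other parts of the cell death machinery, and factors and kinases upstream of BH3-only genes, were read through 5 lists of 75 further genes. Of these, 74 were found and 60 tested. None of the 60 was called against vehicle on any day by edgeR, DESeq2 or limma voom, and 3, 0 and 5 had an unadjusted p under 0.05 in edgeR at days 1, 2 and 3. Their median log2 fold changes were 0.011, 0.016 and 0.0089. The 14 genes that were too low for a test had 4 to 165 reads in all, and among them were Bik and the Bcl2a1 genes of the family itself.

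Of 16 other family members, 9 were tested and 0 called at day 3, with a median log2 fold change of -0.032. Pmaip1 (NOXA, a BH3-only gene that neutralises Mcl1) had the smallest joint p of this list (0.0477; edgeR adjusted p = 0.700). It stood at 4.35 ± 0.745 CPM (SD, n = 6) in vehicle, 3.97 ± 0.808 at day 1, 4.76 ± 1.22 at day 2 and 3.48 ± 0.439 at day 3, so its day 3 mean was the lowest of the 4. Bmf, another BH3-only gene, named after its values were seen, had the smallest day 3 p of the list. It went from 2.51 CPM in vehicle to 3.27 CPM at day 3, a log2 fold change of 0.39 ± 0.16 (SE; edgeR adjusted p = 0.686). Of the 21 genes found for the step after mitochondria are breached, all were tested and 0 called, with a day 3 median of -0.0020. Casp9, the initiator caspase of that step, had the list's smallest joint p (0.0862; edgeR adjusted p = 0.819) and went from 26.3 ± 1.91 CPM in vehicle to 27.7 ± 1.31 at day 3. Apaf1, the scaffold that activates Casp9, was at 24.8 ± 4.12 and 26.4 ± 2.55 CPM, and is named for its role, after its values were seen.

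Of 13 genes of the death receptor route, 11 were tested and 0 called at day 3. Their median log2 fold change was 0.11, beside -0.0016 over all genes, and 9 of 11 were above 0, where 49% of all genes were. Tnfrsf1a, a receptor of tumour necrosis factor, was at 9.85 ± 1.41 CPM (SD, n = 6) in vehicle and 12.6 ± 1.70 at day 3, a log2 fold change of 0.38 ± 0.11 (SE; edgeR adjusted p = 0.214). Of 10 genes of necroptosis and pyroptosis, 5 were tested and 0 called, with a median of 0.18. Ripk3, Mlkl and Zbp1, the list's genes of necroptosis, were too low for a test, as were Casp4 and Il1b. The values of this list therefore give no reading of necroptosis. Nlrp3, the inflammasome sensor of immune cells, came closest to a call of any gene in the 6 lists at day 3, at 0.886 ± 0.371 CPM in vehicle and 1.52 ± 0.514 at day 3 (0.86 ± 0.23; edgeR adjusted p = 0.0943). Of 14 upstream transcription factors and kinases, all were tested and 0 called, with a median of -0.030. Atf4, a factor of the integrated stress response, had the smallest joint p of that list (0.0276; edgeR adjusted p = 0.588) and spanned 91.6 to 102.7 CPM in vehicle and 92.3 to 98.1 CPM at day 3.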

How the data were processed

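Whole-number counts per gene, not normalized, were deposited as a single table with a column per library. The mm39 build is named, per the submitters' processing notes, which also list DESeq2 1.32.0, STAR 2.7.9a and fastp 0.23.1 without their roles. The sources used here do not give the counting program or its use of strand. Groups came from the treatment label and columns were matched by animal name. Symbols came from a table of identifiers (52084 of 55417 matched, EYFP by its own name). A chi-square of the counts, per degree of freedom, was between 3.86 and 13.3 for the 60 pairs of libraries of a group, so none looked like a repeat deposit. Each column has its own name, read here as an animal number, but the labels do not say outright that each library is a separate animal. If any is not, p-values measure only the spread between libraries.

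Counts were tested with edgeR 4.0.16 in R 4.3.3 (quasi-likelihood, two-sided, group and sex over 24 libraries, trimmed mean of M values, filterByExpr with minimum count 10 and minimum total 15), with Benjamini-Hochberg adjustment over all genes tested. CPM use the same scaling. DESeq2 1.42.0 and limma 3.58.1 were alternatives. Scripts were tested on simulated data. Total counts of 16621659 to 23667449 reads limit the precision of low genes. Exon lengths came from GENCODE M21 (GRCm38), of another build than the files, so no coordinates are given. The members and lists were chosen with earlier results of these data known. By rule, every member was named, and from each other list any called gene and the gene with the smallest joint p, and the 3 genes most alike for the 3 members with the smallest joint p. 1 listed gene, Septin4, had no match under that symbol. Some single genes of the lists are not reported here.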

Additional observations from a re-analysis of the deposited data

Results flagged for a closer look

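In 3 of the 40 group and gene pairs examined, a library stood far from the other 5 of its group, where chance alone flags about 1 group in 20. Library 3 of day 2 was at 11.2 CPM for Bax, with the next lowest at 15.9 CPM, and at 14.1 CPM for Bad, with the next lowest at 17.6 CPM. The same library was the lowest of all 24 for Bax and Bad and the highest of all 24 for Bcl2l11 and Hrk. For Bcl2, library 1 of day 2 was at 23.7 CPM, with the next lowest at 26 CPM. Without library 3, the day 2 log2 fold change was 0.027 for Bax, against -0.042 with it, and neither was called.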

How the results depend on the processing

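Members called stayed at 0 of 10 in 182 of 183 refits of the comparisons and of the day by sex test. The exception was day 3 against vehicle, where 1 member, Bbc3, was called once the first 2 digits of the animal number entered the model. Leaving out each of the 24 libraries in turn gave 0 members called in each comparison, with Bbc3 at day 3 between 0.28 and 0.35 (edgeR adjusted p = 0.0842 to 0.341), and Bbc3 lay above 0 in 36 of 36 alternatives on each day. With no filter on low counts the number of all genes called went from 11 to 159 at day 1, from 11 to 86 at day 2, from 103 to 217 at day 3, from 109 to 295 for day 3 against day 1 and from 108 to 433 jointly. The lowest numbers, in males or females alone, were 0, 0, 12, 10 and 13, and leaving out a library gave 4 to 28, 7 to 12, 72 to 110, 44 to 117 and 68 to 132. The causes were not tested. No paired analysis was possible because the labels give no replicate number that groups share, and they do not say what the first digits of the animal number mark; those digits were fitted only as a model term, with the result above. Depth limits Bak1, Bcl2l11, Bid and Bbc3 most, with 98 to 290 reads per library.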

Other observations

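The sex of the animal was fitted beside the group, and 0 of 10 members differed between males and females (edgeR; 12 genes, or 0.0716% of all genes tested, did). The largest value was that of Bax, lower in males by 0.072 ± 0.060 on the log2 scale (SE; adjusted p = 0.808). None of the 10 members, and 0 of all genes tested, passed the day by sex test of the 3 days jointly. The smallest unadjusted p among the members was that of Hrk (0.0617; adjusted p = 1.00). In vehicle, the 2 male libraries stood at 82.8 and 86.3 CPM for Hrk and the 4 female libraries at 94.9 to 110.4 CPM, so the sexes did not overlap there, while at day 1 they spanned 96.2 to 106.7 and 99.1 to 106.1 CPM.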
